A study of Mus musculus with 4 samples.

Results

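The genes described here are 10 genes of epithelial cells and their junctions. They are the keratins Krt7, Krt8, Krt18 and Krt19, the adhesion molecules Cdh1 and Epcam, the claudins Cldn3, Cldn4 and Cldn6, and Tjp1. They were taken by gene symbol and are 10 of the 30142 genes tested. Each had 1 row of the array whose platform annotation held that symbol alone. RNA came from outgrowths, cultures that arise when a blastocyst attaches, its trophoblast cells spreading outward from a core of inner cell mass descendants. Blastocysts at 3.5 days post coitum, the offspring of Tip110+/- parents, were grown singly in stem cell medium containing a serum replacement over 4 to 6 days, and each was typed as wild-type or Tip110-/- from its own cDNA. Every group therefore shares the intercross and the culture, and neither the mouse strain nor the structure of the Tip110 allele is stated in the sources used here. Each genotype had 2 Affymetrix whole-transcript arrays: 3 outgrowths were pooled for replicate 1, and replicate 2 came from 1 outgrowth alone. The amounts of RNA obtained were 746 and 178 pg for wild-type and 165 and 144 pg for Tip110-/-, or 249 and 178 pg per outgrowth against 55 and 144 pg.

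Keratins are intermediate filament proteins that work as pairs of a type II chain, such as Krt7 or Krt8, with a type I chain, such as Krt18 or Krt19; the Krt8 and Krt18 pair is the first to appear in the mouse embryo and marks trophectoderm and its trophoblast descendants. E-cadherin, encoded by Cdh1, holds neighbouring cells together at adherens junctions and is made by both the epiblast and the trophectoderm. Claudins form the strands of the tight junction that seals the blastocyst cavity, and the scaffold ZO-1, encoded by Tjp1, anchors those strands to actin. Outgrowths mix several lineages, and in bulk RNA fewer cells of a type and less RNA per cell cannot be told apart.

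Values are the deposited log2 signals, so a difference of 1 is a 2-fold change in signal. Differences are Tip110-/- minus wild-type. Sart3, the gene that encodes Tip110, read 4.94 and 5.98 in wild-type, against 4.28 and 4.54 in Tip110-/-, and exceeded the highest background row in 1 array. The groups did not overlap, with a difference of -1.05 ± 0.39 (SE), without passing the threshold (limma adjusted p = 0.386). Whether its probes fall inside the altered part of the gene is not stated, so this is a limited check of the labels. The median over all genes was 4.21 and 4.22 in wild-type, against 4.45 and 4.32 in Tip110-/-, a median difference of 0.15, and the hybridization control cre was at 13.27 and 13.07 against 13.67 and 13.34. These controls were higher in both Tip110-/- arrays, so array quality and genotype cannot be told apart.

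None of the 10 epithelial genes differed between the genotypes at the adjusted threshold of 0.05, where 0.0% of all genes passed, and 0 of the 10 reached an unadjusted p under 0.05, where 12.7% of all genes did (limma). The 4 keratins lay above the highest antigenomic background row in every array of either genotype. Krt8 and Krt18 lay 0.60 higher on average in Tip110-/-, and Cdh1 and Epcam 1.03 and 0.71 lower, but for each of these genes a gap between arrays of the same genotype was larger than the difference. In all 10 genes at least 1 gap between arrays of the same genotype exceeded the difference between the genotype means. This held in 63.6% of all genes, and in 68.4% of those with a mean signal at least as high as that of Cldn6. Only for Krt8 did the groups not overlap, 1 gene of 10, against 52.9% of all genes. The median difference of the 10 genes was 0.07, beside 0.15 for all genes, and the median size of their differences, without sign, was 0.47. Among the 10925 genes with a mean signal at least as high as that of Cldn6, the lowest of the 10, the median size was 0.49. The median difference of those genes, with sign, was -0.03. Limma adjusted p-values of the 10 genes ran from 0.429 for Krt8 to 0.962 for Krt7. With 2 arrays against 2, an exact permutation test cannot give a two-sided p below 0.333, so no single gene can pass on its own ranks.

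**Figure D1:**
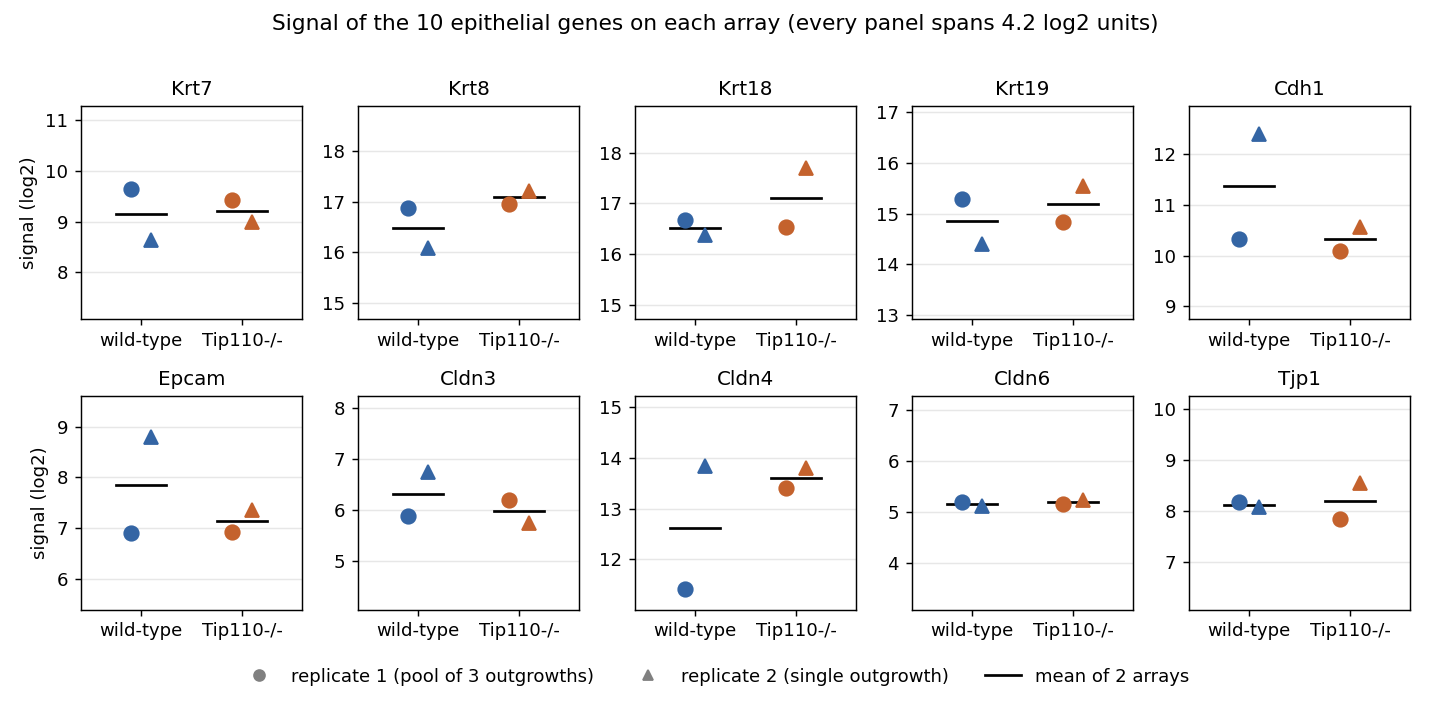
Signal of each gene on each array (vertical axis, log2), by genotype; circles are pools of 3 outgrowths, triangles single outgrowths, and bars the mean of 2 arrays. Panels are centred on each gene's own mean and share the same height in log2 units. Krt8 is the only panel in which the genotypes do not overlap, with 16.88 and 16.08 in wild-type below 16.95 and 17.22 in Tip110-/-.

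Krt8, the type II keratin of simple epithelia, was at 16.88 and 16.08 in wild-type and at 16.95 and 17.22 in Tip110-/-. Both Tip110-/- arrays lay above both wild-type arrays, although the pooled arrays were only 0.07 apart and the single outgrowths 1.14. The means were 16.48 ± 0.57 (SD, n = 2) and 17.09 ± 0.19 (SD, n = 2), a difference of 0.60 with a 95% interval from -0.19 to 1.40 (limma adjusted p = 0.429). It was 0.20 without wild-type replicate 2 and 1.00 without wild-type replicate 1. Its type I partner Krt18 was at 16.66 and 16.37 in wild-type and at 16.53 and 17.69 in Tip110-/-. The single Tip110-/- outgrowth was the highest, and the pool lay between the wild-type arrays. The means were 16.52 ± 0.20 (SD, n = 2) and 17.11 ± 0.82 (SD, n = 2), a difference of 0.60 with an interval from -0.45 to 1.65 (limma adjusted p = 0.489). The Krt18 difference was 0.02 without Tip110-/- replicate 2 and 1.18 without Tip110-/- replicate 1.

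Krt19, a type I keratin without a tail domain, was at 15.29 and 14.40 in wild-type and at 14.83 and 15.55 in Tip110-/-. The groups overlapped, with the pooled pair and the single pair differing in opposite directions, by -0.46 and 1.15. The mean difference was 0.34 with an interval from -0.79 to 1.48 (limma adjusted p = 0.690), and it was -0.10 without wild-type replicate 2. Krt7, a type II keratin of simple and glandular epithelia that is also used as a trophoblast marker, was at 9.65 and 8.63 in wild-type and at 9.42 and 9.00 in Tip110-/-. Both Tip110-/- values lay between the wild-type values. Its mean difference was 0.07 with an interval from -1.48 to 1.62 (limma adjusted p = 0.962). All 4 keratins had a positive mean difference, from 0.07 to 0.60, and in the pooled arrays alone 3 of the 4 were lower in Tip110-/-. The intervals of Krt8, Krt18 and Krt19 do not reach a decrease of 1 on the log2 scale, whereas that of Krt7 does.

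Krt8 and Krt18 are neighbouring genes on chromosome 15 that are read in opposite directions away from each other, and Krt7 lies on the same chromosome. Their promoters are shown because these keratins share the position of wild-type replicate 2 as their lowest array. Each window is the 250 bases before the RefSeq transcription start in GRCm38.p6, read 5′ to 3′ on the gene's own strand, at chr15:102004343-102004592 on the minus strand for Krt8, chr15:102027966-102028215 on the plus strand for Krt18 and chr15:101412153-101412402 on the plus strand for Krt7. Capitals mark matches to the E-box CACCTG, the site of the repressors of the Snail and ZEB families, on either strand (CAGGTG is its reverse), and to the AP-2 motif GCCNNNGGC, which reads the same on both strands.
Krt8: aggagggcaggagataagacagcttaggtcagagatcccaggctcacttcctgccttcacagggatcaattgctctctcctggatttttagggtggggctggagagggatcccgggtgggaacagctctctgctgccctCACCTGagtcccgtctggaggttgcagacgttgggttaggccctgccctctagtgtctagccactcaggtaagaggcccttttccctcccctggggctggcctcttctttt
Krt18: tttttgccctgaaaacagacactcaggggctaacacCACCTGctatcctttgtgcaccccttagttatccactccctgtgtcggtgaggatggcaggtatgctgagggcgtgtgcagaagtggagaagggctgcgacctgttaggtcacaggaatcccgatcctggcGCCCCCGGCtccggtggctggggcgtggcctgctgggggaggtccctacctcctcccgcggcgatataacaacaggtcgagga
Krt7: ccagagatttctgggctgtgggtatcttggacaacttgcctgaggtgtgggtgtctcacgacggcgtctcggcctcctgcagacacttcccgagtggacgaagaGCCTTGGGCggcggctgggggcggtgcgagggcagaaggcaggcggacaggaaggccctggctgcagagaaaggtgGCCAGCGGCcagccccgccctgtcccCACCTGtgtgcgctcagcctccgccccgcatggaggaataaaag
All 3 windows hold the E-box, from 111 to 106 bases before the start in Krt8, 214 to 209 in Krt18 and 44 to 39 in Krt7. The AP-2 motif lies in Krt18, from 83 to 75 bases before the start, and at 2 places in Krt7, and not in the Krt8 window. A match is a description of letters and not a measured binding site.

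Cdh1, E-cadherin, was at 10.32 and 12.40 in wild-type and at 10.09 and 10.56 in Tip110-/-. The single wild-type outgrowth stood 1.84 or more above the other arrays, which lay within 0.47 of each other. The means were 11.36 ± 1.47 (SD, n = 2) and 10.33 ± 0.33 (SD, n = 2), a difference of -1.03 with an interval from -3.16 to 1.10 (limma adjusted p = 0.538). It was 0.00 without wild-type replicate 2 and -2.07 without wild-type replicate 1, so the sign and size rest on which wild-type array is used. Epcam, an adhesion molecule of epithelial and embryonic stem cells, followed the same order of wild-type arrays. It was at 6.92 and 8.80 in wild-type and at 6.93 and 7.36 in Tip110-/-, and the groups overlapped. The difference was -0.71 with an interval from -2.60 to 1.17 (limma adjusted p = 0.622). Leaving out wild-type replicate 2 turned it to 0.23, and leaving out wild-type replicate 1 gave -1.65.

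Cldn4, a claudin known from the trophectoderm of the mouse blastocyst, was at 11.41 and 13.85 in wild-type and at 13.40 and 13.80 in Tip110-/-. Here the pooled wild-type array was the low value, and the other 3 arrays lay close together. The means were 12.63 ± 1.72 (SD, n = 2) and 13.60 ± 0.29 (SD, n = 2), a difference of 0.97 with an interval from -1.25 to 3.19 (limma adjusted p = 0.571). Leaving out wild-type replicate 2 gave 2.19, and leaving out wild-type replicate 1 gave -0.25. Cldn3, its neighbour on chromosome 5 and like it a sealing claudin, was at 5.87 and 6.74 in wild-type and at 6.19 and 5.75 in Tip110-/-. The groups overlapped, with a difference of -0.34 and an interval from -1.44 to 0.77 (limma adjusted p = 0.690). The pair of neighbours thus did not show the same order of arrays, apart from wild-type replicate 2 being the highest for both.

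Cldn6, a claudin of early embryonic epithelia, was at 5.19 and 5.12 in wild-type and at 5.17 and 5.23 in Tip110-/-. It varied least of the 10, with a difference of 0.04 and an interval from -0.53 to 0.61 (limma adjusted p = 0.929). These values lay above the 90th percentile of the 23 antigenomic background rows, 4.13 to 4.29 over the arrays, but in the wild-type arrays below the highest background row, 6.12 and 5.80. Cldn3 passed the highest background row in 3 of 4 arrays and the other 8 genes in all 4. A change of Cldn6 at this level can be understated, which was not tested. Tjp1, the ZO-1 scaffold, was at 8.18 and 8.06 in wild-type and at 7.84 and 8.55 in Tip110-/-, the wild-type values lying between those of Tip110-/-. The difference was 0.07 with an interval from -1.23 to 1.37 (limma adjusted p = 0.951).

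Windows of the same length were taken from Epcam, on the plus strand at chr17:87635729-87635978, and Cldn4, on the minus strand at chr5:134946935-134947184, to set beside those of the keratins, since their order of wild-type arrays was the opposite.
Epcam: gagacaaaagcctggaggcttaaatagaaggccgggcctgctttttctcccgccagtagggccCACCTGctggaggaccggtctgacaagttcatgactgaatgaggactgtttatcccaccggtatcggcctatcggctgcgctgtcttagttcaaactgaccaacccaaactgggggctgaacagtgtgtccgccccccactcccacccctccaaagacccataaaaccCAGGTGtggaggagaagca
Cldn4: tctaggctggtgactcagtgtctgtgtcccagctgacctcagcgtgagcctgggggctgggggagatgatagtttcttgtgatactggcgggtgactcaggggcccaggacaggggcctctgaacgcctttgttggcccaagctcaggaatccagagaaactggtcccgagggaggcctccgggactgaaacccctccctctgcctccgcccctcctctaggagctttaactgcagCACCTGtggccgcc
Epcam holds the E-box at 2 places and Cldn4 at 1, from 14 to 9 bases before the start. Cldn3 had the same order of wild-type arrays, and its window, which is not printed, held neither the E-box nor the AP-2 motif. Of the 10 genes, 8 had a window in the RefSeq table, and 6 of these held the E-box: Krt7, Krt8, Krt18, Epcam, Cldn4 and Cldn6. Cdh1 and Krt19 had no window there, so their promoters were not examined. Over all 32851 promoter windows of that length the share was 17.2%. The AP-2 motif was in 2 of the 8, Krt7 and Krt18, against 13.7% of all windows. The grainyhead motif AACNNGTT, also the same on both strands, and the TEAD motif GGAATG (reverse CATTCC) were in 0 of the 8, against 3.64% and 12.6% of all windows. The windows of the 8 genes were 53.6% to 66.0% G or C, where the median over all windows was 52.4%. Genes with and without the E-box included both directions of difference.

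**Figure D2:**
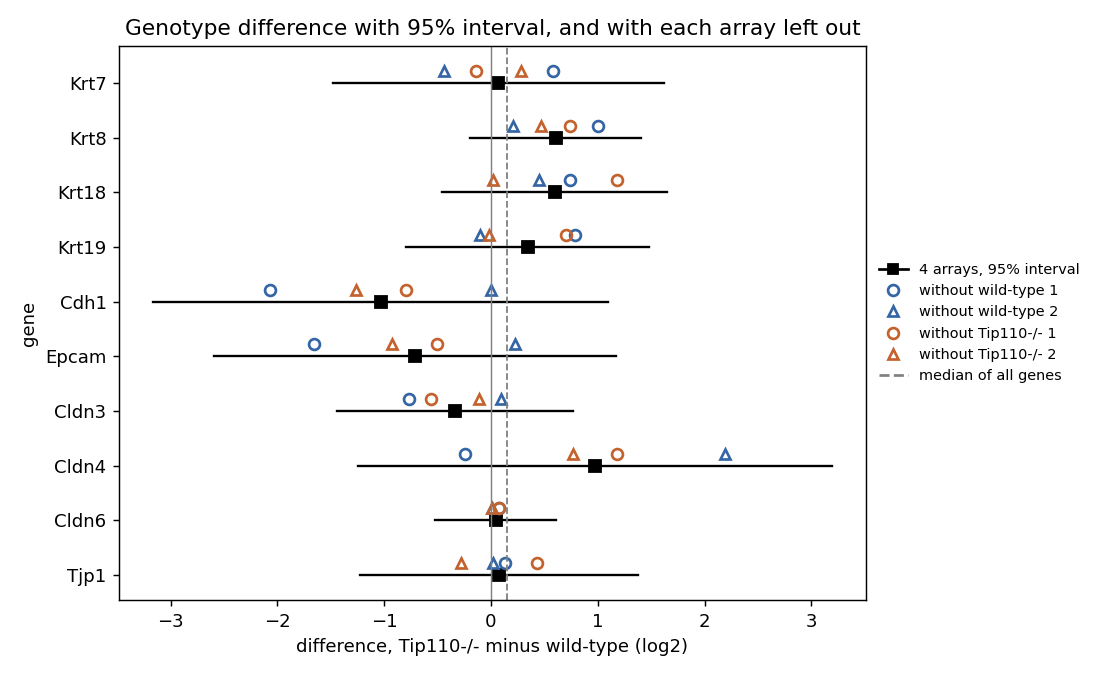
Difference between the genotype means for each gene (horizontal axis, log2, Tip110-/- minus wild-type) with its 95% interval from limma; open symbols show the difference when 1 array is left out, and the dashed line is the median of all genes, 0.15. All 10 intervals include 0, and leaving out wild-type replicate 2 moves Cdh1 from -1.03 to 0.00.

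Arrays of the same genotype differed in a recurring way. The single wild-type outgrowth had the lowest signal of the 4 arrays for all 4 keratins and the highest for Cdh1, Epcam, Cldn3 and Cldn4. It was below the wild-type pool by 0.29 to 1.02 for the keratins and above it by 0.86 to 2.44 for the other 4 genes, a grouping made after the values were seen and given without a test. Over all genes this array was the lowest of the 4 in 33.4% and the highest in 15.3%. Between the single outgrowths, Krt7, Krt8, Krt18 and Krt19 differed by 0.37, 1.14, 1.32 and 1.15, and Cdh1, Epcam, Cldn3 and Cldn4 by -1.84, -1.44, -0.99 and -0.04. Between the pools the keratins differed by -0.23, 0.07, -0.13 and -0.46 in that order, and the other 4 genes by -0.23, 0.02, 0.32 and 1.99. Cldn4 was thus nearly equal between the single outgrowths and furthest apart between the pools. Whether the genotype difference depends on pooling cannot be tested with 1 array of each kind.

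**Figure D3:**
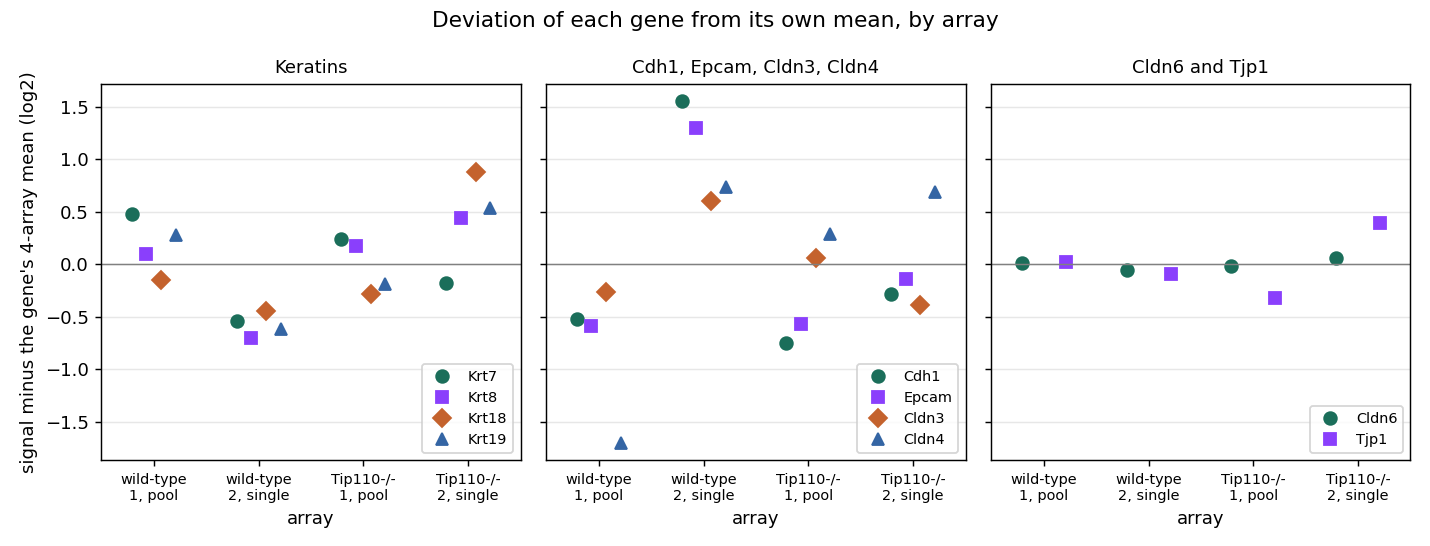
Signal of each gene minus its own mean over the 4 arrays (vertical axis, log2), for the keratins, for Cdh1, Epcam, Cldn3 and Cldn4, and for Cldn6 and Tjp1; each symbol is 1 array. Wild-type replicate 2 is the lowest array for all 4 keratins and the highest for all 4 genes of the middle panel, while Cldn6 stays between 5.12 and 5.23.

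Markers of the lineages in an outgrowth are given beside these values. For 14 genes of the epiblast, the log2 of the summed signal came to 18.73 and 18.89 in wild-type, against 17.10 and 15.45 in Tip110-/-. That sum follows the brightest gene, Dppa5a, at 18.61 and 18.70 against 17.06 and 15.35. Of the 14, 11 were lower at an unadjusted p under 0.05, where 3.67% of all genes were lower and 8.99% higher. Among the 10925 genes with a mean signal at least as high as that of Cldn6, 944 were lower and 430 higher at that threshold. Nanog was at 13.56 and 15.19 against 10.10 and 4.15 and did not pass without wild-type replicate 2, where the difference was -6.43, and Pou5f1 was at 10.04 and 10.06 against 7.75 and 5.52. The steepest by p were Fgf4, Nr0b1 and Tdgf1, with differences of -4.15, -7.97 and -6.05 (limma adjusted p = 0.241, 0.241 and 0.287). Fgf4, Nr0b1 and Nanog did not exceed the 90th percentile of the background rows in Tip110-/- replicate 2, so their differences can be understated. For the epiblast genes the 2 wild-type arrays had no common order, 8 of the 14 being higher and 6 lower in the single outgrowth. For 14 giant cell and placental genes the summed signal was 18.87 and 17.51 against 18.92 and 19.95, and 6 were higher at an unadjusted p under 0.05. The sum follows a few bright genes: 8 of the 14 were lowest in the single wild-type outgrowth and 6 in the wild-type pool. Prl5a1 and Prl8a9, hormones of the prolactin family, and Syna, a syncytin at background, differed by 5.64, 5.53 and 0.36 (limma adjusted p = 0.287, 0.290 and 0.345), Syna passing in 4 of 11 other settings. For 10 trophoblast progenitor genes it was 12.37 and 12.22 against 12.72 and 14.25, with 2 genes higher, Gata2 at 2.16 and Ets2 at 2.34. Both passed in 1 of 4 fits that left out an array, with ranges of 1.14 to 3.19 and 1.19 to 3.49. Eomes and Cdx2, regulators of trophoblast stem cells, differed by 0.94 and 0.62 without passing. The part of these shifts in the epithelial values was not tested.

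Primitive endoderm genes, 18 in all, had a summed signal of 13.27 and 12.25 against 11.70 and 12.36. That sum follows Sparc, at 12.90 and 12.13 against 11.37 and 12.03, and the median difference of the 18 was 0.03. Of these genes, 16 were lower and 2 higher in the single wild-type outgrowth than in the wild-type pool. In 13 of the 18 that outgrowth was the lowest of the 4 arrays. The part of this order in the epithelial values was not tested. The 1 gene past an unadjusted p of 0.05 was Ttr, higher by 0.39. Ttr was at background in every array and past the threshold in 3 of 11 other settings. Gata6 and Afp differed by 0.98 and 0.65 without passing, and each exceeded the 90th percentile of the background rows in 1 array only. Leaving out that array, Tip110-/- replicate 2 for Gata6 and Tip110-/- replicate 1 for Afp, gave 0.06 and 0.26. Fibroblast genes, a check for other cells, were at a summed signal of 6.48 and 6.56 against 6.85 and 6.63, with 0 of 7 past an unadjusted p of 0.05 and 5 of 7, among them Postn, Dcn and Col1a2, at or below the 90th percentile of the background rows in every array. Their differences were 0.31, 0.23 and 0.19. Among 4 haematopoietic genes, Ptprc, Cd3e and Lyz2 were at background in the same sense, Ptprc and Lyz2 differing by 0.18 each, and Cd68 was at 10.39 and 7.69 against 10.09 and 10.42.

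The rest of the epithelial and junction genes were set beside the 10 in 7 lists with 93 measured genes. Of these, 0 passed the adjusted threshold, 4 were lower and 4 higher at an unadjusted p under 0.05, where 3.67% and 8.99% of all genes were, and 85 did not pass. Among the 10925 genes with a mean signal at least as high as that of Cldn6, 944 were lower and 430 higher at that threshold. For the 93 genes, the groups did not overlap in 39 that were higher and 12 that were lower in Tip110-/-. These were 41.9% and 12.9%, beside 39.9% and 12.9% of all genes. The median difference was 0.10. The shares without overlap lie near those of all genes.

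Among 9 other keratins and 17 other claudins, 0 passed even the unadjusted threshold. Krt14, a type I keratin of basal cells, was at 13.97 and 11.45 in wild-type and at 14.54 and 14.85 in Tip110-/-. Like Krt8 it was lowest in the single wild-type outgrowth and did not overlap between genotypes, with a difference of 1.98 ± 0.87 (SE; limma adjusted p = 0.402). It was 0.72 leaving out wild-type replicate 2, and 3.25 leaving out wild-type replicate 1. Krt15, Krt23 and Krt42 differed by 0.10, -0.36 and 0.21. Cldn7, a claudin that Epcam protein binds, was at 7.90 and 8.13 against 8.16 and 7.85, a difference of -0.01, and 13 of the 17 other claudins were at or below the 90th percentile of the background rows in all 4 arrays. Cldn10 and Cldn12, close to that level, differed by 0.20 and 0.19, and Cldn22, which is among the 13, by 0.13.

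Of 18 tight junction partners, 1 was lower at an unadjusted p under 0.05. This was Jam2, an immunoglobulin-type junctional adhesion molecule also known from embryonic stem cells, at 9.85 and 10.50 in wild-type and at 6.83 and 4.44 in Tip110-/-. Both Tip110-/- arrays were far below wild-type, a difference of -4.54 ± 0.89 (SE; limma adjusted p = 0.318). Its relatives F11r and Jam3 differed by -0.96 and 0.75, and the polarity kinase Prkci by -0.77, without passing. Among 9 adherens junction partners, 0 passed: the actin linker Vcl differed by 1.45, P-cadherin (Cdh3) by 0.89, VE-cadherin (Cdh5) by 0.98 and alpha-catenin (Ctnna1) by -0.90.

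Desmosomes, the junctions to which keratin filaments attach, had 1 of 13 genes higher at an unadjusted p under 0.05, Perp, a desmosomal membrane protein that is also a p53 target. It was at 7.88 and 6.79 in wild-type and at 9.73 and 9.34 in Tip110-/-, a difference of 2.19 ± 0.59 (SE; limma adjusted p = 0.342). The call was lost without wild-type replicate 2 and without Tip110-/- replicate 1, the range over the arrays left out being 1.65 to 2.74. Plakophilin-2 (Pkp2), plakoglobin (Jup) and desmoplakin (Dsp) differed by 1.42, 1.14 and 0.10 without passing. Among 16 epithelial regulators, 2 were higher and 1 lower. Grhl3, a grainyhead factor of surface epithelia, was at 6.84 and 6.56 against 9.23 and 9.38, a difference of 2.60 ± 0.46 (SE), with little spread in either genotype (limma adjusted p = 0.315). Klf5, a factor of both trophectoderm and inner cell mass, was at 8.36 and 8.82 against 7.65 and 6.14, a difference of -1.70 ± 0.66 (SE; limma adjusted p = 0.393). Klf5 passed in 5 of 12 other settings, not with the replicate block, and ranged from -2.46 to -0.94 over the arrays left out. Ehf, at background, differed by 0.33 and passed in 2 of 11 other settings, and the AP-2 factor Tfap2a by 1.28 without passing.

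Genes linked to mesenchymal cells and to the loss of epithelial junctions were 11 in number, of which 2 were lower and 1 higher at an unadjusted p under 0.05. Fn1, the matrix protein fibronectin, was at 12.99 and 14.31 in wild-type and at 10.98 and 9.67 in Tip110-/-, a difference of -3.33 ± 0.73 (SE; limma adjusted p = 0.333). Vim, the intermediate filament of mesenchymal cells, was at 7.35 and 7.74 against 5.52 and 6.47, a difference of -1.55 ± 0.48 (SE; limma adjusted p = 0.354), which did not pass without wild-type replicate 2 or without Tip110-/- replicate 1 and ranged from -2.03 to -1.08 over the arrays left out. Foxc2, at background, differed by 0.33 and passed in 3 of 11 other settings, and Tcf4 by -0.32. The repressors of the E-box marked above were not called: Snai1, Snai2 and Zeb1 differed by 0.31, -0.26 and -0.15, with limma adjusted p of 0.773, 0.600 and 0.770, and were named for that motif after their values were seen. Snai2 exceeded the 90th percentile of the background rows in 1 array only. Snai1 and Zeb1 exceeded the highest background row in 1 and 2 arrays, and Zeb2 had no usable row. These values are therefore a limited check.

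**Figure D4:**
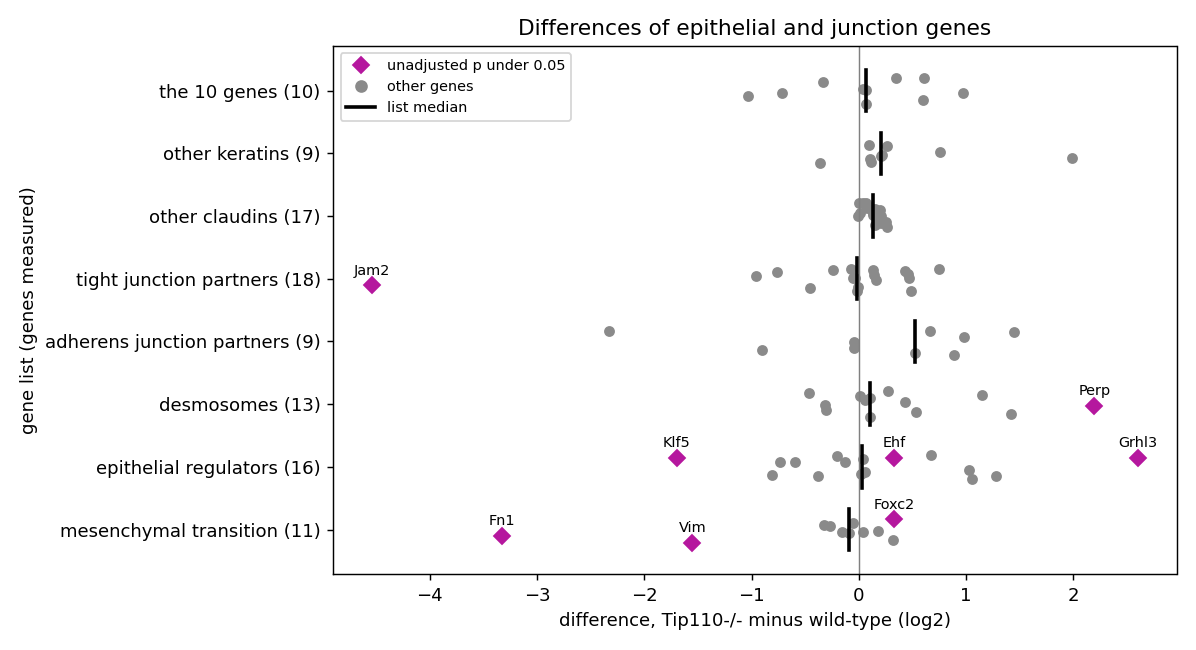
Differences between the genotype means (horizontal axis, log2) for the 10 genes and for 7 lists of related genes, with the number measured in brackets; diamonds mark an unadjusted p under 0.05 and bars the list medians. The 10 genes lie between -1.03 and 0.97 with no diamond, while Jam2 at -4.54 and Fn1 at -3.33 lie far to the left.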

How the data were processed

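Biotin-labelled RNA of 4 samples, 2 per genotype, was measured on Affymetrix whole-transcript mouse arrays, from 144 pg of RNA each per the labels' protocols, although the series' design text gives a lower amount. Log2 signal was deposited for 72688 rows, base 2 being read from how far the values extend. Affymetrix Expression Console and Transcriptome Analysis Console are named in the submitters' processing notes, and the normalization is not given in the sources used here. Of 65956 transcript cluster rows, 30604 had 1 distinct symbol; symbols were updated by Entrez ID through the RefSeq gene table of GRCm38.p6 for 22818 of them. For 355 genes with several rows the row with the highest mean was kept, leaving 30142 genes.

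Each gene was fitted with limma 3.58.1 in R 4.3.3 (lmFit, and eBayes with an intensity trend), genotype being the only term and no filter being set on level; all 10 genes lay above the median row. Two-sided p-values were adjusted over all 30142 genes by the Benjamini-Hochberg method. Shares of promoter windows came from the RefSeq promoter table. Python 3.11.15 with pandas 2.3.3 and matplotlib 3.10.9 was used for tables and plots. The fit was tested on simulated data. Members and lists were chosen with earlier results of these data known. From each related list the text names genes at an unadjusted p under 0.05 without overlap, then those of highest mean, up to 4 in all; from each marker list, the 3 smallest p plus Pou5f1, Nanog, Cdx2 and Gata6. The labels call the arrays biological replicates without naming the parents, so p-values measure only the spread between these samples. The number of arrays limits the precision. Equal replicate numbers separate pools from single outgrowths and share no stated litter or day; the alternatives tried are given at the end.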

Additional observations from a re-analysis of the deposited data

How the results depend on the processing

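Over 12 other settings of limma, 0 of the 10 genes reached an adjusted p under 0.05, the lowest being 0.336 without Tip110-/- replicate 1. At an unadjusted p under 0.05, 1 gene was higher with quantile normalization and 1 with cyclic loess, Krt8 in each case (0.77 and 0.68); with each array left out in turn, 0 to 1 were higher and 0 to 1 lower. A fit that leaves out an array assumes that the lone sample varies like the other group. Centring each array on its median turned Krt7 to -0.10, Cldn6 to -0.12 and Tjp1 to -0.10, and the median of the 10 genes to -0.10; it lowers differences by construction, the median of all genes going from 0.15 to -0.02. Leaving out single arrays gave ranges of 0.20 to 1.00 for Krt8, 0.02 to 1.18 for Krt18, -0.44 to 0.58 for Krt7, -0.10 to 0.79 for Krt19, -2.07 to 0.0048 for Cdh1, -1.65 to 0.23 for Epcam, -0.77 to 0.10 for Cldn3, -0.25 to 2.19 for Cldn4, -0.28 to 0.43 for Tjp1 and -0.0051 to 0.25 for the median of the 10; the cause was not tested. With the replicate number as a block, which also separates pools from single outgrowths, Krt8 differed by 0.60 (limma adjusted p = 0.509). No call among the 10 changed. Deviations of same-numbered arrays from their group means correlated at -0.09 across 30142 genes. Because the number also separates pools from single outgrowths, this value cannot tell whether same-numbered samples shared a litter or day.

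Of the 93 related genes, 2 were higher after centring; single arrays left out gave 1 to 6 higher and 2 to 4 lower, the fewest of both without wild-type replicate 2. Jam2, Grhl3 and Fn1 passed in all 12 settings, Perp and Vim in 10, Klf5 in 5, Foxc2 in 3 of 11 and Ehf in 2 of 11; with the replicate block Klf5 and Ehf did not pass. Differences of named genes that changed sign were Krt15 (-0.069), Cldn22 (-0.035) and Dsp (-0.064) after centring, Cldn7 (0.12), Cldn22 (-0.059), Col1a2 (-0.0053), Ptprc (-0.012) and Lyz2 (-0.0043) with quantile normalization, and Cldn7 (0.049), Cldn22 (-0.052), Ptprc (-0.0087) and Lyz2 (-0.0032) with cyclic loess. Over single arrays left out, the ranges of those that changed sign were -0.92 to 0.19 for Krt23, -0.068 to 0.48 for Krt42, -0.16 to 0.14 for Cldn7, -0.37 to 0.57 for Dsp, -0.041 to 1.29 for Cdx2 and -0.13 to 2.56 for Cd68. Cldn6 and Cldn3 are limited by their closeness to background.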
